A study of Gallus gallus with 6 samples.

Results

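Syndecans and glypicans are the main heparan sulfate proteoglycans of the cell surface, and the transcripts of 8 of them were followed here in chicken embryo dermal myofibroblasts: SDC1, SDC2, SDC3, SDC4, GPC1, GPC3, GPC4 and GPC6. Every probe set of the array whose annotated symbol is exactly one of these names was taken, which gave 12 of 38439 probe sets, for 7 of the 8 genes, on an array with 13009 annotated genes. SDC4, the syndecan of focal adhesions, had no probe set under its name and was not analysed. The cells grew out of skin explants from brown Leghorn embryos at day 10 and were kept in medium with 4% serum from fetal cattle and 2% chicken serum. They received 500 nM TGFBR1 Kinase Inhibitor II, an ATP-site inhibitor of TGFBR1, the type I receptor through which TGF-beta signals, for 48 h, or the solvent control with 0.1% DMSO. There were 3 biological replicates per group, each on an Affymetrix chicken array. Both groups had the same serum, the labels describe no added TGF-beta, and they do not tie the replicates to separate embryos. The spread behind each p-value is therefore that between these samples and may be technical. The series title sets the aim as the expression program under TGF-beta control.

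Syndecans are transmembrane proteins whose outer part carries heparan sulfate chains and whose short cytoplasmic tail binds kinases, PDZ proteins and the actin cytoskeleton. Glypicans carry the same kind of chain but are held in the membrane by a glycosylphosphatidylinositol (GPI) anchor. Through their chains both families bind fibroblast growth factors, WNT and hedgehog proteins and matrix glycoproteins, and so set where these ligands meet their receptors.

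The values are log2 GCRMA intensities. Levels of different probe sets are not on a common scale, so differences between groups were taken within each probe set. Exceptions were the summed marker signals, in which the brightest probe sets weigh most, and the mean profiles over a gene's probe sets. A probe set was tested if it reached a log2 value of 4 in at least 3 of the 6 arrays, which 8 of the 12 did, covering SDC1, SDC2, GPC1 and GPC4. A call is a limma p-value under 0.05, adjusted by Benjamini-Hochberg across the 16567 probe sets in the fit. The mean profiles over a gene's probe sets had a separate limma fit, with p-values adjusted across genes. Probe sets of a gene are numbered here in order of falling mean signal, and the first of them represents the gene.

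Of the 8 tested probe sets of these genes 4 were called, against 13.8% of all tested probe sets. With the inhibitor 3 fell (6.51% of all did) and 1 rose (7.27% of all did). By their representative probe sets SDC1 fell, GPC4 rose and SDC2 and GPC1 did not pass. Of the 8124 tested genes 15.7% were called, 8.17% up and 7.5% down. With same-numbered arrays paired as a replicate block, 4 of the 8 were called, against 28.1% of all probe sets (14.9% up and 13.2% down). The groups did not overlap for 5 of the 8, 3 of them lower and 2 higher with the inhibitor, against 35.8% of all tested probe sets (17.1% lower and 18.7% higher). These genes were picked with earlier results of the same arrays known, so the counts describe them and support nothing further.

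**Figure D1:**
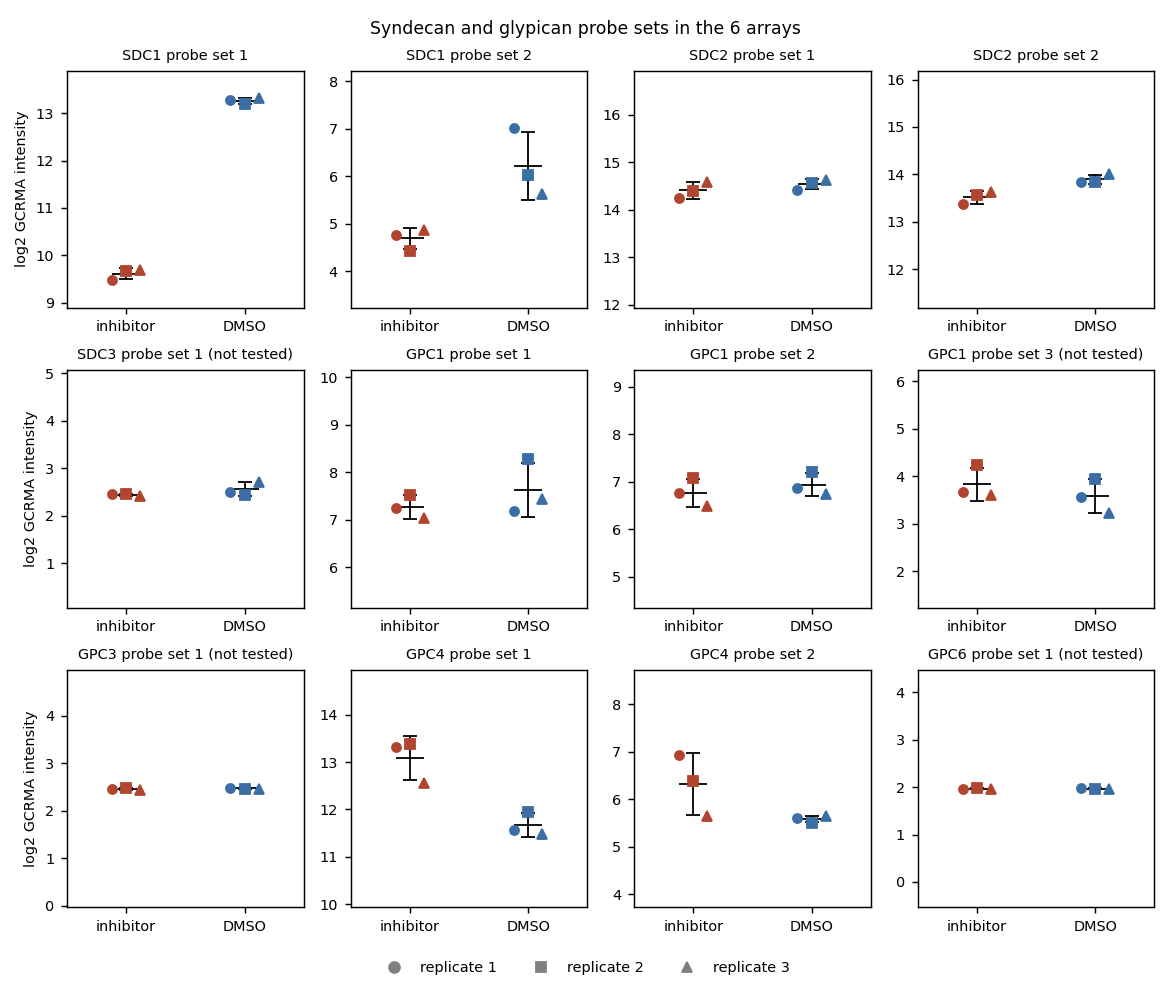
Log2 GCRMA intensity of the 12 syndecan and glypican probe sets in each array, inhibitor left and DMSO right, with replicates by marker shape and bars for mean ± SD (n = 3). Every panel spans 5 log2 units. SDC1 probe set 1 lies at 9.48 to 9.70 with the inhibitor and at 13.19 to 13.31 in DMSO arrays, and GPC4 probe set 1 lies higher with the inhibitor in all 3 replicates.

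SDC1, the syndecan best known from epithelia and plasma cells in mammals, fell furthest of these genes. Its probe set 1 read 9.48, 9.67 and 9.70 in inhibitor replicates 1, 2 and 3, against 13.27, 13.19 and 13.31 in the DMSO replicates. All inhibitor arrays lay more than 3 log2 units below all DMSO arrays, and the spread within each group was small, with 9.62 ± 0.12 for the inhibitor and 13.26 ± 0.06 for DMSO (SD, n = 3 each). The log2 difference was -3.64 ± 0.09 (limma, SE), a level 12.5-fold lower with a 95% interval of 10.7-fold to 14.5-fold (adjusted p 8.69e-05). Same-numbered arrays differed by -3.79, -3.52 and -3.61 on the log2 scale in replicates 1, 2 and 3. In a bulk culture, fewer cells that express a gene and less RNA per cell cannot be told apart.

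Of all 16567 probe sets tested without a replicate block, SDC1 probe set 1 had the smallest p, and with the block it ranked 2 by p. By size it was less extreme: among 8124 genes, the fall of SDC1 ranked 20 from the lowest. The mean signal of SDC1 stayed at 9.62 with the inhibitor, well above the floor near 2 to 3 where GCRMA gathers dim probe sets. The call held without any 1 of the 6 arrays (difference -3.68 to -3.57, adjusted p 0.000890 to 0.00238).

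SDC1 probe set 2 fell too, by less and with a wider spread. It read 4.77, 4.43 and 4.86 with the inhibitor, against 7.02, 6.03 and 5.63 in DMSO arrays, so the groups did not overlap but the DMSO arrays spread over more than 1 log2 unit. The difference was -1.54 ± 0.36 (limma, SE, adjusted p 0.0382), or 2.90-fold lower with a 95% interval of 1.59-fold to 5.29-fold. The 95% intervals of the 2 probe sets do not overlap. The inhibitor values stand close to the filter of 4. Leaving out inhibitor 1, 2 or 3 or DMSO 2 ended the call of probe set 2 (adjusted p 0.0805 to 0.0996), and DMSO 1 carried part of the size, with -1.14 without it. The mean profile of both probe sets fell by 2.59 on the log2 scale (± 0.19, adjusted p 0.000895).

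SDC2, the syndecan typical of mesenchymal cells and fibroblasts, moved little. Its probe set 1 read 14.24, 14.39 and 14.59 with the inhibitor, against 14.42, 14.56 and 14.62 in DMSO arrays, and the groups overlapped. The difference was -0.13 ± 0.10 (limma, SE, adjusted p 0.470, 95% interval -0.38 to 0.12), so a fall of more than 1.30-fold lies outside the interval of this probe set. Probe set 2 read 13.37, 13.57 and 13.62 with the inhibitor, against 13.83, 13.84 and 14.01 in DMSO arrays, with no overlap. That difference of -0.37 ± 0.09 passed (limma adjusted p 0.0417) at a size of 1.30-fold, with a 95% interval of 1.11-fold to 1.51-fold lower.

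Both SDC2 probe sets lay lower with the inhibitor in all 3 same-numbered comparisons, by 0.03 to 0.18 for probe set 1 and by 0.27 to 0.46 for probe set 2. The call of probe set 2 was lost without any 1 of the 6 arrays (adjusted p 0.0563 to 0.119), and the mean of both probe sets did not pass (-0.25 ± 0.09, adjusted p 0.121). Both sit within 3 log2 units of the highest value on any array.

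SDC3, a syndecan known mainly from the nervous system and from limb cartilage and muscle of the chick and mouse, gave no usable signal. Its only probe set read 2.45, 2.45 and 2.41 with the inhibitor, against 2.51, 2.44 and 2.72 in DMSO arrays. No array came near the filter, so a change in SDC3 was not measurable here.

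Among the glypicans, GPC4 rose. Its probe set 1 read 13.32, 13.39 and 12.56 with the inhibitor, against 11.57, 11.95 and 11.49 in DMSO arrays. The lowest inhibitor array, replicate 3, lay 0.61 above the highest DMSO array. The difference was 1.42 ± 0.24 (limma, SE, adjusted p 0.0142), a level 2.67-fold higher with a 95% interval of 1.78-fold to 4.01-fold. Same-numbered arrays differed by 1.74, 1.44 and 1.07 on the log2 scale. Without inhibitor 1, DMSO 1 or DMSO 3 the call was lost, with differences of 1.30, 1.37 and 1.33 (adjusted p 0.0546, 0.0608 and 0.0566).

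GPC4 probe set 2 read 6.94, 6.40 and 5.64 with the inhibitor, against 5.61, 5.51 and 5.64 in DMSO arrays. The groups touched: inhibitor replicate 3 lay only 0.0048 above DMSO replicate 3. The difference of 0.74 ± 0.32 did not pass (limma adjusted p 0.183, 95% interval -0.03 to 1.51). Without inhibitor 3 it was 1.08 and passed (adjusted p 0.0343), and without inhibitor 1 it was 0.44 (0.359). Inhibitor replicate 3 was the lowest of its group on both GPC4 probe sets, and the mean of both sets rose by 1.08 (± 0.26, adjusted p 0.0374).

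**Figure D2:**
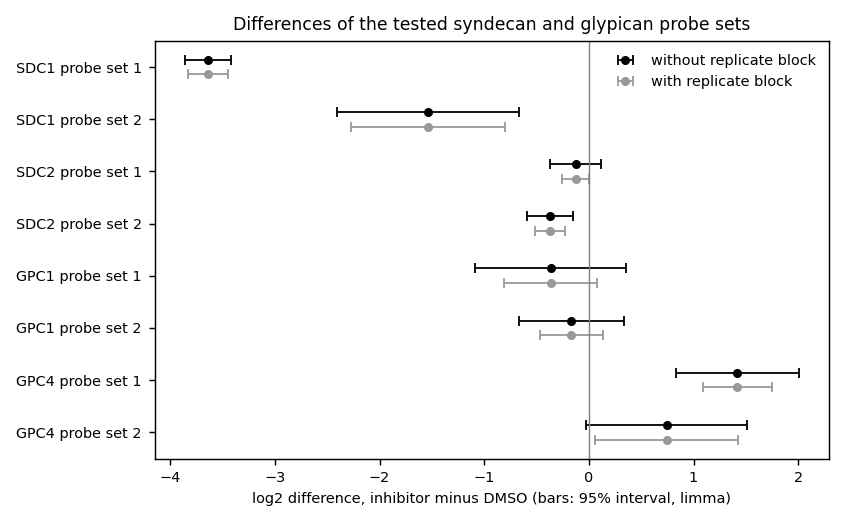
Log2 difference, inhibitor minus DMSO, of the 8 tested probe sets, with 95% intervals from limma without the replicate block (black) and with it (grey). Both SDC1 probe sets, SDC2 probe set 2 and GPC4 probe set 1 have black intervals that leave out 0, whereas those of GPC4 probe set 2, both GPC1 probe sets and SDC2 probe set 1 hold it.

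GPC1, the most widely expressed glypican in mammals, did not pass. Probe set 1 read 7.24, 7.53 and 7.03 with the inhibitor, against 7.19, 8.27 and 7.43 in DMSO arrays, and probe set 2 read 6.76, 7.08 and 6.49 against 6.86, 7.22 and 6.74. The groups overlapped on both, and replicate 2 was the highest of its group on each. The differences were -0.37 ± 0.30 (limma adjusted p 0.479, 95% interval -1.09 to 0.36) and -0.17 ± 0.21 (0.648, -0.67 to 0.33). These intervals leave room for a fall of up to 2.13-fold or a rise of up to 1.28-fold by probe set 1. DMSO replicate 2 set much of the size of probe set 1, which was -0.05 without it. GPC1 probe set 3, at 3.60 to 4.23 with the inhibitor and 3.23 to 3.94 in DMSO arrays, was below the filter.

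GPC3, whose loss causes an overgrowth syndrome in humans, and GPC6, whose loss causes a short-limbed skeletal dysplasia in humans, were at the floor. The GPC3 probe set read 2.45 to 2.48 with the inhibitor and 2.46 to 2.49 in DMSO arrays. The GPC6 probe set read 1.96 to 1.98 with the inhibitor and 1.96 to 1.98 in DMSO arrays. Each gene has only 1 probe set, so an absent transcript and a probe set that does not report it cannot be told apart. No change in either gene could be measured. The names of the GPC6 probe set and of GPC1 probe set 3 end in s_at, the maker's mark for probes that can match several transcripts.

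In a gene table of chicken assembly GRCg7b the glypicans lie in neighbouring groups. GPC4 stands on chromosome 4 between HS6ST2, a heparan sulfate sulfotransferase, and GPC3. While GPC4 rose, HS6ST2 stood at 9.38 ± 0.15 with the inhibitor and 9.29 ± 0.16 in DMSO arrays (SD, n = 3 each; difference 0.09 ± 0.13, limma adjusted p 0.711), and GPC3 was at the floor. GPC1 neighbours GPC2 on chromosome 9, and GPC2 did not pass either (0.21 ± 0.18, adjusted p 0.494).

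**Figure D3:**
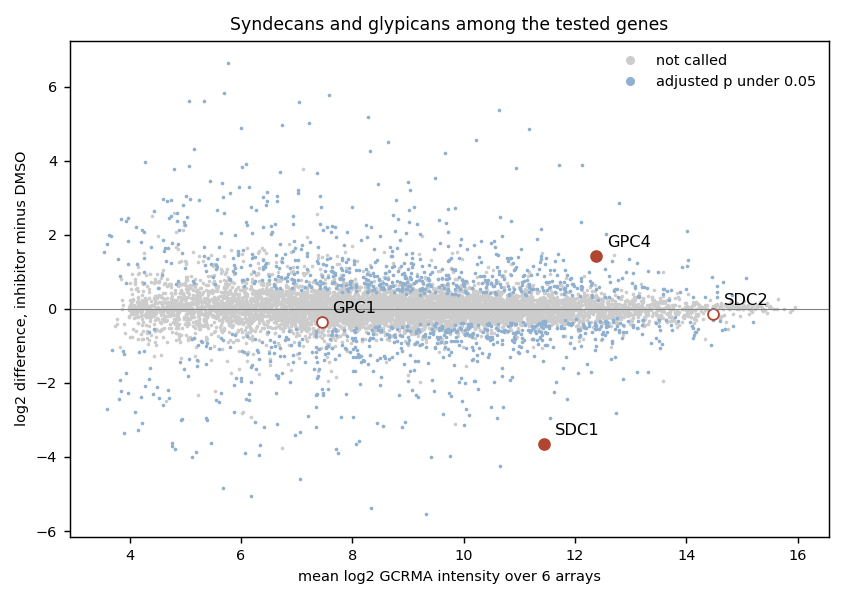
Log2 difference, inhibitor minus DMSO, against mean log2 GCRMA intensity over the 6 arrays for the 8124 tested genes, each by its brightest probe set. SDC1 (-3.64) and GPC4 (1.42) are drawn filled as called, and SDC2 (-0.13) and GPC1 (-0.37) open.

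The genes whose centred profiles over the 6 arrays lay closest to that of SDC1, by Euclidean distance in log2 units, were PDE4D, a cyclic AMP phosphodiesterase (distance 0.58, difference -4.01), the cytokine gene IL16 (0.61, -3.68) and the autophagy gene MAP1LC3C (0.64, -3.98). Those closest to GPC4 were LPIN1, a phosphatidate phosphatase (0.31, 1.63), SGCD, a sarcoglycan (0.38, 1.29), and CAV1, the coat protein of caveolae (0.40, 1.38). The measure uses the group difference itself and only 6 arrays, so it describes likeness and nothing more. PDE4D averaged 3.11 with the inhibitor and LPIN1 averaged 3.87 in DMSO arrays, both under the filter of 4. Neither could have passed the filter without the group where it was high.

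The labelled cell type was checked against marker genes. All 10 fibroblast markers were tested, with COL1A1, COL3A1, DCN and VIM at 14.4 to 15.8 in both group means. In this list 1 rose and 1 fell, against 8.17% and 7.5% of all tested genes. Of the 10, PDGFRB rose (9.68 ± 0.29 with the inhibitor and 8.48 ± 0.19 in DMSO arrays, SD, n = 3 each, limma adjusted p 0.00919) and TWIST2 fell (difference -0.58 ± 0.13, 0.0350), a call lost without any 1 array (TWIST2, 0.0528 to 0.102). LUM did not pass without the block (-1.95 ± 0.55, 0.0651, and 0.00421 with it), nor did COL1A2 (-0.35 ± 0.15, 0.189, and 0.0220 with it). Of 7 tested myofibroblast markers 2 fell, against 7.5% of all tested genes. They were TPM1 (-0.36 ± 0.06, limma adjusted p 0.0101, 8 of 8 probe sets called) and POSTN (-2.81 ± 0.55, 0.0217). The other 5 did not pass, with ACTA2 at 0.46 ± 0.26, MYL9 at 0.22 ± 0.08, TPM2 at 0.19 ± 0.27, TAGLN at -0.18 ± 0.09 and ACTN1 at -0.19 ± 0.05. Of the 9 keratinocyte markers on the array, 8 were under 4 on all arrays, among them CDH1, EPCAM and TP63, and KRT14 averaged 5.51 with the inhibitor and 5.31 in DMSO arrays. Their summed linear signal was 75 to 115 with the inhibitor and 82 to 115 in DMSO arrays, so the groups overlapped. Members of both lists thus lay on either side of 0, while the summed signal of fibroblast markers was lower, at 172446 to 200971 against 202226 to 228696, and so was that of myofibroblast markers, at 98390 to 116823 against 123411 to 142522. Summed endothelial markers (6 on the array, TEK, TIE1 and KDR under 4) were 57 to 82 with the inhibitor and 78 to 115 in DMSO arrays. Among them PECAM1 fell, a call lost without any 1 array (limma adjusted p 0.0696 to 0.103). Dimmer PECAM1 probe sets stood at -1.90 (0.00714) and -1.01 (0.165). Adipocyte markers summed to 254 to 424 against 68 to 80, through LPL, with ADIPOQ and PLIN1 under 4. Of 2 tested adipocyte markers 1 rose, against 8.17% of all tested genes. It was LPL, and the call held without any 1 array (difference 2.89 to 3.48, limma adjusted p 0.00537 to 0.0204). Blood and macrophage markers summed to 383 to 541 against 267 to 334 (SPI1, CD3E and LCP1 under 4), and melanocyte markers to 502 to 657 against 218 to 418, through MITF, with PMEL, TYR, TYRP1, DCT and MLANA under 4. Skeletal muscle markers, 5 of 5 under 4, summed to 22 to 23 against 23 to 23, and neural markers, 2 of 3 under 4, to 34 to 43 against 37 to 42. The part of these shifts in the SDC1 and GPC4 results was not tested.

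Core proteins carry their function largely through the chains built on them, so the genes that make, trim and bind those chains were followed in the same fit, in 11 lists of 150 symbols. Of these genes, 103 were tested, 9 rose and 19 fell, which is 27.2% called, against 15.7% of all tested genes (8.17% up and 7.5% down). With the replicate block, which pairs same-numbered arrays, 22 rose and 31 fell, against 16.5% up and 15.2% down, or 31.6% in all, among all genes in that fit. The median difference of the 103 genes was -0.09, and that of all tested genes 0.01. The lists were chosen with earlier results of these arrays known, so these counts describe the lists and support nothing further. They include VTN and PTN, which passed the filter only through the group where each was high. No list was tested as a set, and each holds only 2 to 21 tested genes.

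**Figure D4:**
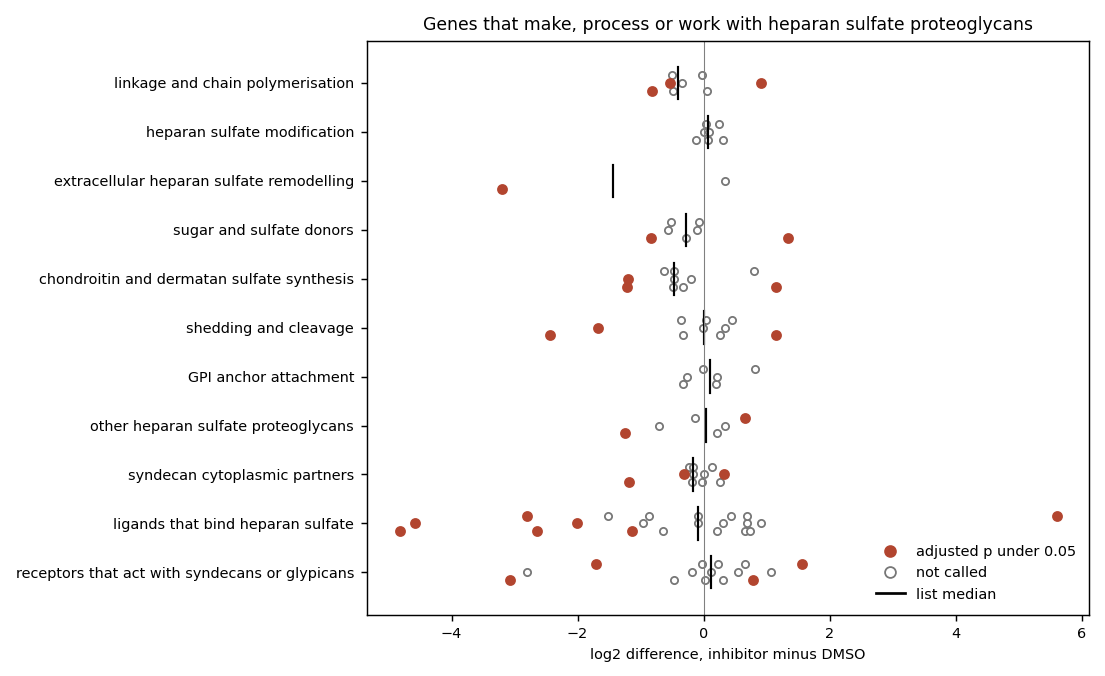
Log2 difference, inhibitor minus DMSO, of each tested gene in the 11 lists, with filled points for adjusted p under 0.05 and a bar at each list's median. The filled point of extracellular remodelling is SULF1 at -3.20, and no gene of heparan sulfate modification is filled.

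SULF1, an extracellular sulfatase that removes 6-O-sulfate groups from finished heparan sulfate, fell furthest among the tested genes of the 5 lists that build or edit the chains. It read 7.08, 7.71 and 7.07 with the inhibitor, against 10.59, 10.58 and 10.29 in DMSO arrays, and no inhibitor array came within 2 log2 units of a DMSO array. The difference was -3.20 ± 0.20 (limma, SE, adjusted p 0.000684), a level 9.18-fold lower, and it held without any 1 array. All 4 other tested SULF1 probe sets read lower with the inhibitor as well, by 1.55 to 3.20 on the log2 scale. For 3 of them the inhibitor means were 3.18 to 3.42, near the floor and under the filter of 4. These 3 could not have passed the filter without the DMSO arrays, where they were high, so their falls are no support. The remaining probe set averaged 6.48 with the inhibitor and 9.68 in DMSO arrays. SULF2, the related sulfatase, stood at 0.33 ± 0.29 (adjusted p 0.513), and these were the 2 tested of 4 genes in the list.

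The intracellular enzymes that modify the growing chain did not pass. Of 16 listed, 7 were tested and limma called 0, against 15.7% of all tested genes. With the block it also called 0, against 31.6%. With so few genes these counts do not set the list apart. An unadjusted p under 0.05 was reached by 0 of the 7, a share not counted over all genes. Among the 16567 tested probe sets, GPC4 probe set 2 ranked only 5073 by p, at an unadjusted limma p of 0.056. Values near 0.05 were thus common on the array, but 7 genes are too few to set the list apart by this count. The differences of the 7 genes ran from -0.12 to 0.31, with a median of 0.07. Among them were GLCE, the epimerase of glucuronic acid (0.00 ± 0.11), the uronyl 2-O-sulfotransferase HS2ST1 (0.04 ± 0.10) and the N-deacetylase and N-sulfotransferase NDST2 (0.07 ± 0.10). No HS3ST gene, of the 3-O-sulfotransferases, passed the filter.

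Among enzymes that start and lengthen the chain, 1 of 8 tested rose and 2 fell, against 8.17% and 7.5% of all tested genes. Their median difference was -0.41. EXT1, a subunit of the heparan sulfate polymerase, fell (10.50, 10.41 and 10.64 with the inhibitor, against 11.51, 11.34 and 11.17 in DMSO arrays; -0.82 ± 0.12, limma adjusted p 0.00791), and its second probe set fell by 0.96. The other polymerase subunit, EXT2, stood at -0.34 ± 0.15 (0.197). B4GALT7, which adds the first galactose of the linkage to the core protein, fell (-0.54 ± 0.11, 0.0272), a call lost without inhibitor 1 or 2 or DMSO 2 or 3 (0.0670 to 0.0925). EXTL2, a transferase that can end chain growth in mammals, rose (4.99, 5.11 and 5.01, against 4.15, 4.16 and 4.08; 0.91 ± 0.12, 0.00599), from DMSO values just above the filter.

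Genes for the sugar and sulfate donors had a median difference of -0.27, against 0.01 for all tested genes. Of the 7 tested 6 lay below 0, a share not counted over all genes. Among them SLC35B3 (-0.07 ± 0.15) and SLC35D1 (-0.10 ± 0.14) stood near 0. UGP2, which makes UDP-glucose, rose 2.52-fold (13.46, 13.59 and 13.84 with the inhibitor, against 12.18, 12.29 and 12.43 in DMSO arrays; 1.33 ± 0.12, limma adjusted p 0.00171). PAPSS1, which makes the sulfate donor PAPS, fell 1.78-fold (10.97, 11.08 and 10.93, against 11.80, 11.85 and 11.84; -0.83 ± 0.08, 0.00193), and its 2 other probe sets fell as well (-0.94 and -1.32). UGDH, which turns UDP-glucose into UDP-glucuronic acid, stood at -0.52 ± 0.17 (0.103, and 0.0123 with the block). Calls among these 7 were 1 up and 1 down, where the shares for the whole array's tested genes were 8.17% up and 7.5% down. Under the block the calls were 1 up and 3 down, where those shares were 16.5% and 15.2%.

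**Figure D5:**
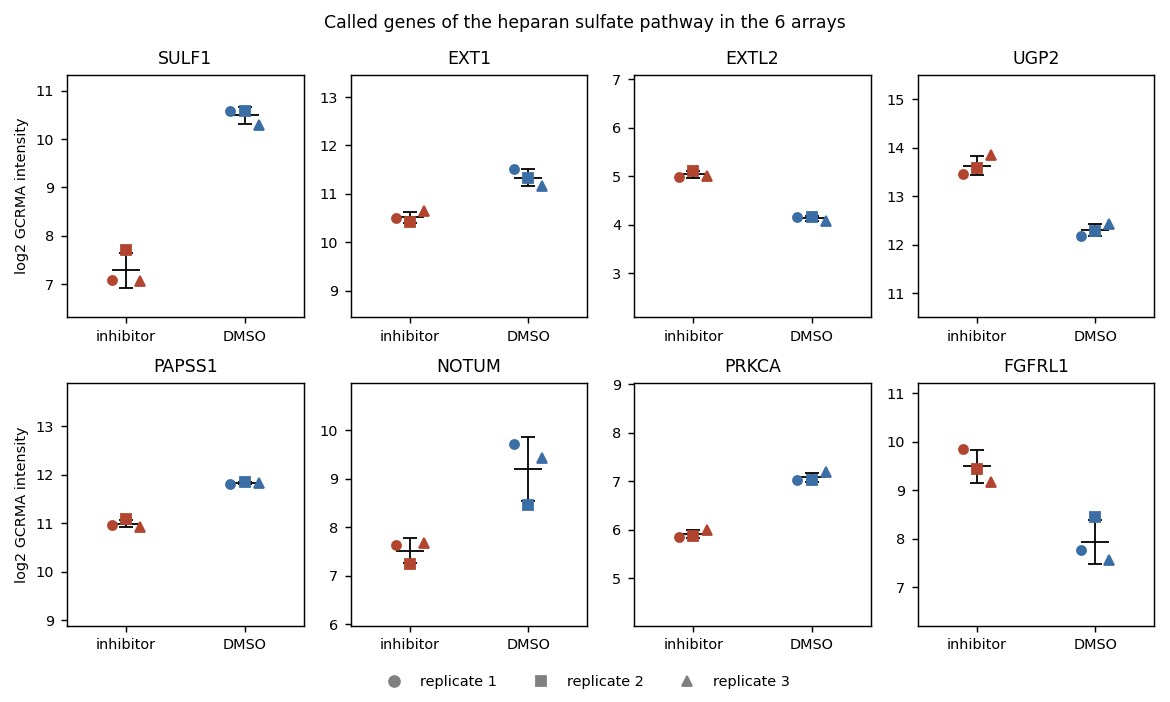
Log2 GCRMA intensity of 8 called pathway genes in each array, inhibitor left and DMSO right, replicates by marker shape, with mean ± SD (n = 3) and panels of 5 log2 units. SULF1, EXT1, PAPSS1, NOTUM and PRKCA lie lower with the inhibitor and EXTL2, UGP2 and FGFRL1 higher. The groups do not overlap in any panel, as for 35.8% of all tested probe sets. The 8 were taken from called genes, so this separation largely follows from the choice.

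Syndecans can also carry chondroitin sulfate. Of 10 tested genes for chondroitin and dermatan sulfate synthesis 1 rose and 2 fell, against 8.17% and 7.5% of all tested genes. With the block 2 rose and 5 fell, against 16.5% and 15.2%. Their median difference was -0.47. CHSY1, a chondroitin synthase (-1.21 ± 0.20, limma adjusted p 0.0117), and CHST15, a chondroitin sulfotransferase (-1.20 ± 0.20, 0.0129), fell, and the uronyl 2-O-sulfotransferase UST rose (1.14 ± 0.25, 0.0301). A second CHSY1 probe set fell by 1.99, and 2 dimmer UST probe sets did not pass (0.87 and 0.57). The CHST15 call was lost without inhibitor 1 or DMSO 1 or 3 (0.0519 to 0.0570), and that of UST survived only the removal of inhibitor 2 (0.0511 to 0.0962 without the others).

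Among proteins that cut syndecans or glypicans from the membrane, and their regulators, 1 of 10 tested rose and 2 fell. Of all tested genes 8.17% rose and 7.5% fell. With the block 2 rose and 3 fell, against 16.5% and 15.2%. NOTUM, a secreted hydrolase of WNT lipids that can also release glypicans at their GPI anchor, fell (7.64, 7.24 and 7.69 with the inhibitor, against 9.71, 8.46 and 9.43 in DMSO arrays; -1.68 ± 0.33, limma adjusted p 0.0230), as did TIMP3, an inhibitor of sheddases (-2.45 ± 0.28, 0.00372). ADAMTS1, a protease that cuts SDC4 in mammals, rose (1.14 ± 0.28, 0.0430). The sheddases ADAM10 (0.26 ± 0.08, 0.0828, and 0.0211 with the block) and ADAM17 (0.34 ± 0.23, 0.382) did not pass. The NOTUM call survived only the removal of DMSO 2 (0.0569 to 0.0810 without the others), and that of ADAMTS1 survived only the removal of inhibitor 3 (0.0669 to 0.128 without the others). Of 6 tested genes that attach GPI anchors limma called 0, against 15.7% of all tested genes. With the block 1 rose, against 16.5% of all tested genes. It was PIGK of the GPI transamidase (0.82 ± 0.24, limma adjusted p 0.0699, and 0.0134 with the block). Without the block, 2 of the 6 had an unadjusted p under 0.05, a share not counted over all genes. Among the 16567 tested probe sets, GPC4 probe set 2 ranked only 5073 by p, at an unadjusted limma p of 0.056. Values near 0.05 were thus common on the array, and 2 of 6 does not set this list apart.

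Of 11 tested partners of the syndecan tail 1 rose and 2 fell, against 8.17% and 7.5% of all tested genes. With the block 2 rose and 3 fell, against 16.5% and 15.2%. PRKCA, the protein kinase C that SDC4 binds in mammals, fell 2.26-fold (5.85, 5.86 and 6.00 with the inhibitor, against 7.04, 7.03 and 7.19 in DMSO arrays; -1.18 ± 0.13, limma adjusted p 0.00309). SDCBP, syntenin, the PDZ protein that holds the last residues of syndecan tails, rose (0.33 ± 0.07, 0.0231), and a dimmer SDCBP probe set rose by 1.10. Cortactin, CTTN, which links syndecans to actin, fell (-0.32 ± 0.07, 0.0335), while CASK, another PDZ partner, stood at -0.02 ± 0.11 (0.932). Of the 4 other CTTN probe sets 2 fell (-0.63 and -0.56) and 2 did not pass (-0.61 and -0.11). The SDCBP call survived only the removal of DMSO 2 (0.0596 to 0.0689 without the others), and that of CTTN survived only the removal of inhibitor 2 (0.0761 to 0.107 without the others).

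Of 6 tested genes for other proteins that can carry heparan sulfate, 1 rose and 1 fell, against 8.17% and 7.5% of all tested genes. With the block 2 rose and 1 fell, against 16.5% and 15.2%. The added call was NRP1 (0.34 ± 0.20, limma adjusted p 0.318, and 0.0414 with the block). Perlecan, HSPG2, stood at -0.14 ± 0.17 (limma adjusted p 0.662), and COL18A1 rose (0.65 ± 0.11, 0.0129). CD44, some forms of which carry heparan sulfate, fell (-1.26 ± 0.23, 0.0169). The CD44 call was lost without inhibitor 1 or 2 or DMSO 2 or 3 (0.0513 to 0.0652), and that of COL18A1 without inhibitor 1 or DMSO 1 (0.0523 and 0.0517).

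Of 21 tested ligands that bind heparan sulfate 1 rose and 6 fell, against 8.17% and 7.5% of all tested genes. With the block 7 rose and 9 fell, against 16.5% and 15.2%. The 4 largest changes were the rise of vitronectin, VTN (5.60 ± 0.22), and the falls of pleiotrophin, PTN (-4.82 ± 0.42), which binds SDC3, of WNT5B (-4.59 ± 0.36) and of periostin, POSTN (-2.81 ± 0.55), with limma adjusted p 0.000267 to 0.0217. VTN read 2.26 ± 0.03 in DMSO arrays and PTN 3.27 ± 0.23 in inhibitor arrays (SD, n = 3 each), both at the floor, so their folds depend on it. Each passed the filter only through the group where it was high, so its call and p-value are no support. The counts above include both genes. The POSTN call survived only the removal of inhibitor 3 (0.0556 to 0.0780 without the others). A dimmer POSTN probe set fell as well (-3.58, limma adjusted p 0.00751).

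Among receptors that act with these proteoglycans 2 of 15 tested rose and 2 fell, against 8.17% and 7.5% of all tested genes. With the block 4 rose and 3 fell, against 16.5% and 15.2%. FGFRL1, a heparin-binding FGF receptor without a kinase domain, rose 2.95-fold (9.85, 9.45 and 9.18 with the inhibitor, against 7.77, 8.45 and 7.57 in DMSO arrays; 1.56 ± 0.28, limma adjusted p 0.0154), and its second probe set rose by 2.09. FGFR2 rose as well (0.78 ± 0.13, 0.0140), and of its 2 dimmer probe sets 1 rose (1.28) and 1 did not pass (0.52). ITGB5 (-1.72 ± 0.13, 0.000998) and ITGB3 (-3.07 ± 0.74, 0.0414), the beta chains of the alpha-v integrins that SDC1 activates together with IGF1R in human cells, fell. IGF1R (0.02 ± 0.09, 0.931) and the alpha chain ITGAV (0.11 ± 0.10, 0.516) did not pass. The FGFRL1 call was lost without inhibitor 1 or DMSO 1 or 3 (0.0519 to 0.0644), that of FGFR2 without DMSO 1 (0.0595), and that of ITGB3 survived only the removal of DMSO 2 (0.0624 to 0.125 without the others).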

How the data were processed

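Total RNA of 6 cultures was hybridised to Affymetrix chicken arrays. The deposited values are log2 intensities. GCRMA and the program Partek 6.4 are listed per the submitters' processing notes, without settings, and the log2 scale was read from the values (array medians 2.98 to 3.03). Dim probe sets sit near the GCRMA floor, where differences are hidden. Groups and replicate numbers came from the titles, and 0 pairs of arrays were identical. The number of arrays limits the precision.

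Control probe sets (96 of 38535) were left out. The platform annotation gave 1 symbol to 27168 probe sets, several to 177 and none to 11094 of the rest. Probe sets that reached 4 on the log2 scale in 3 or more arrays (16567) were fitted with limma 3.58.1 in R 4.3.3 (lmFit, eBayes with trend), inhibitor minus DMSO, two-sided, without a replicate block; errors of differences are standard errors. A listed gene is its tested probe set with the highest mean. Named were all probe sets of the 8 genes, up to 4 called genes per list by size with up to 2 of the opposite direction, and, for each called representative, the 3 closest profiles. Listed genes that did not pass were named for their roles, after their values were seen. Members and lists were chosen with earlier results of these data known.

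Same-numbered arrays deviated together from their group means (correlations 0.63, 0.67 and 0.45), and unlike numbers did not (-0.45 to -0.14). Deviations cancel out within a group, so the values for unlike numbers are not separate evidence. The numbers may thus pair the samples, a reading that comes from this check and not from the labels. The main fit left this pairing out. Alternatives were the replicate block, median centring, quantile normalization, other filters, no trend, no moderation, array weights, the mean over a gene's probe sets and leaving out each array.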

Additional observations from a re-analysis of the deposited data

How the results depend on the processing

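Over 114 alternative values for the member probe sets and genes, none changed direction; 93 kept their side of the threshold, 20 lost a call and 1 gained it. SDC1 probe set 1 was called in all 14 alternatives run. The replicate block changed no call among the 8 tested probe sets (4 called with and without it), but the count over all probe sets was 4661 with the replicate block, against 2283 without it, and that of list genes 53 against 28. Without any filter 1285 probe sets were called, 2 of them of these genes (SDC1 probe set 1 and GPC4 probe set 1), and without moderation 996 and 1 (SDC1 probe set 1). Leaving out 1 array gave 1107 to 1658 probe sets, 1 to 3 probe sets of these genes and 14 to 23 list genes; the fits with 5 arrays have less power by construction. SDC2 probe set 2 also lost its call with quantile normalization (limma adjusted p 0.0575) and with no trend (0.0933). The dim signal of SDC3, GPC3 and GPC6 and the number of arrays limit what could be seen.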
